A study of Mus musculus with 6 samples.

Results

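The 10 genes described here encode chaperones of the endoplasmic reticulum (ER) and parts of the unfolded protein response, namely Hspa5, Hsp90b1, Calr, Xbp1, Pdia4, Dnajb9, Herpud1, Sdf2l1, Ern1 and Edem1. They were chosen by gene symbol, and all 10 were found among the 23284 genes of each library. RNA was measured in C1498-EGFP cells, a single-cell clone of a mouse acute myeloid leukemia line that carries GFP by retroviral transduction, after growth in wild-type C57BL/6 J mice (young adult females unless stated otherwise). The cells were sorted as GFP+ CD49b+ from marrow of 3 mice given cytarabine and 3 control mice on day 21 after intravenous transfer, and each mouse gave 1 library. Cytarabine, a nucleoside analog that blocks DNA synthesis, was given to the imaging mice of the study shortly before this time point, and the schedule is not stated separately for the RNA mice. The control mice are called both PBS-treated and untreated, and controls and treated mice alike carried the leukemia.

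Proteins that are secreted or placed in membranes fold in the ER, where Hspa5 (BiP), Hsp90b1 (Grp94) and calreticulin hold unfinished chains and protein disulfide isomerases such as Pdia4 join their cysteines. When unfolded chains accumulate, the sensors Ern1 (IRE1), Atf6 and Eif2ak3 (PERK) start the unfolded protein response: IRE1 splices the mRNA of the transcription factor Xbp1, ATF6 is cut and moves to the nucleus, and PERK slows translation and raises ATF4. ATF6 and XBP1 act through the ER stress response element (ERSE), and their targets include the chaperones and the genes of ER-associated degradation, such as Herpud1 and Edem1. Gene-level FPKM does not separate spliced from unspliced Xbp1, so neither IRE1 activity nor protein levels were measured.

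Because ERSE is the element through which several of these genes are known to be induced together, the 250 bases before the RefSeq start of each gene (build GRCm38.p6) were searched on both strands for exact matches to 3 elements. ERSE is CCAAT and CCACG with any 9 bases between them, ERSE-II is ATTGG and CCACG with any 1 base between them, and the XBP1 element is TGACGTGG. All 10 genes had a promoter in the RefSeq table. ERSE was present before 3 of them (Hspa5, Hsp90b1 and Calr) and ERSE-II before Herpud1. Of the 32851 mouse promoters, 0.113% held ERSE and 0.0304% held ERSE-II. Since several of the 10 genes were already known to be induced through ERSE, these shares are background and no test of enrichment. The XBP1 element was before 0 of the 10 genes and in 0.563% of all promoters. Pdia4 held no exact ERSE but 1 match with 1 mismatch, which 1.20% of all promoters held in the absence of an exact match. None of these elements was found before Xbp1, Sdf2l1, Dnajb9, Ern1 or Edem1 in this window. The 4 promoters with an exact element are shown 5′ to 3′ in the direction of the gene, with the fixed letters of the element in capitals. They lie at chr2:34771840-34772089 (plus strand) for Hspa5, chr10:86705445-86705694 (minus strand) for Hsp90b1, chr8:84846932-84847181 (minus strand) for Calr and chr8:94386179-94386428 (plus strand) for Herpud1.
Hspa5: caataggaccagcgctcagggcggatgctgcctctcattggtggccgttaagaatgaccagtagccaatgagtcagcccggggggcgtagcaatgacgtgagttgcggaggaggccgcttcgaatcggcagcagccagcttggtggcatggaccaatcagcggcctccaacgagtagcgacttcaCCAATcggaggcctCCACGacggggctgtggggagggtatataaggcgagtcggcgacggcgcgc
Hsp90b1: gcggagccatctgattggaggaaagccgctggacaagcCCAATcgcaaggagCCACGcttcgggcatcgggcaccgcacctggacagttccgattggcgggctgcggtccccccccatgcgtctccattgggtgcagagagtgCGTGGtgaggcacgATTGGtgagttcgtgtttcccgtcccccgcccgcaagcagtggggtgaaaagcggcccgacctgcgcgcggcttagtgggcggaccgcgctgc
Calr: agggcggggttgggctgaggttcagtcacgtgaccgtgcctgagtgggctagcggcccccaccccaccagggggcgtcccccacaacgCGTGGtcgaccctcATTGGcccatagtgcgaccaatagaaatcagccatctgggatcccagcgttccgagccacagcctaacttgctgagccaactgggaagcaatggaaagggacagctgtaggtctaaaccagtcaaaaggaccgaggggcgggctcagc
Herpud1: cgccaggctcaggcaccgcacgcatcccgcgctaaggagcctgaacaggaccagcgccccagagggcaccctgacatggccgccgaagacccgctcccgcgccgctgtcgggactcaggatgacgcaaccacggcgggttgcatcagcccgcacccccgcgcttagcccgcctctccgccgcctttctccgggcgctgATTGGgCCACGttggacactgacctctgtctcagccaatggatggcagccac

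The ERSE of Hspa5 began 65 bases before the start, and the ERSE-II of Herpud1 52 bases before it. Hsp90b1 had 2 copies, beginning 212 and 107 bases before the start, the second of them on the opposite strand. In Calr the element began 162 bases before the start, also on the opposite strand. ERSE-II shares its CCACG letters with ERSE but has its own spacing, and no site in these promoters counted as both.

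**Figure D1:**
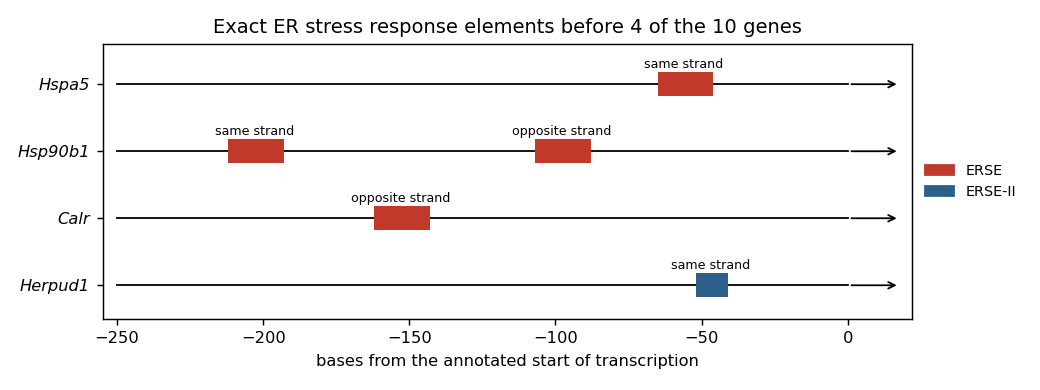
Positions of exact ERSE (red) and ERSE-II (blue) matches in the 250 bases before the RefSeq start of Hspa5, Hsp90b1, Calr and Herpud1. The x axis gives bases from that start, and the arrow the direction of transcription. Hsp90b1 holds 2 matches and each of the others 1, and the matches nearest to the start are those of Herpud1 and Hspa5.

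The libraries differed in how much RNA of other tissues they held. From the steps between low FPKM values, the depth was inferred to lie between 11480000 and 18870000 reads, so that 3 reads of a 2000-base transcript would give 0.0883 to 0.145 FPKM. Ptprc (CD45) was at 283.5 to 385.5 FPKM and Itga2 (CD49b), used for the sort, at 7.79 to 13.3 FPKM, whereas the myeloid and progenitor markers Itgam, Cd33, Csf3r, Cebpa and Kit were at or under 4.76 FPKM in each library. Of the other markers on that list, Cd34 was at 0.410 to 7.72 FPKM and Mpo at 2.33 to 71.1 FPKM, with its highest value in cytarabine 1 and 7.83 to 12.3 FPKM in controls. By group, Itga2 was at 7.93 ± 0.166 FPKM in treated mice and 12.3 ± 1.45 FPKM in controls (SD, n = 3 each). For Itga2, Itgam, Cd33 and Csf3r every cytarabine library was below every control, and for Cebpa and Kit every one was above. The part of these differences in the results was not tested. The summed level of 18 goblet cell and colonocyte genes, which a GFP+ gate should leave out, was 442.6, 5985 and 6241 FPKM in cytarabine 1, 2 and 3 and 2734, 33.1 and 29.2 FPKM in control 1, 2 and 3. Among the defining genes, the goblet cell lectin gene Zg16 was at 9.49 to 2207 FPKM, and the goblet cell factor Spdef was at or under 2.72 FPKM and listed at 0 in control 3. Sums over other lists, for cytarabine and then control libraries, ranged from 7.21 to 658.7 and from 51.1 to 2422 FPKM for 8 heart genes, from 99.5 to 868.3 and from 19.5 to 747.1 FPKM for 5 smooth muscle genes, and from 193.9 to 1586 and from 1454 to 2064 FPKM for 10 neutrophil genes. They ranged from 51.9 to 187.1 and from 32.1 to 47.5 FPKM for 8 genes of B and plasma cells, from 16.4 to 61.1 and from 14.3 to 156.2 FPKM for 7 macrophage genes, and from 13.6 to 104.8 and from 17.5 to 27.5 FPKM for 5 erythroid genes. The B and plasma cell sum was thus higher in all 3 treated mice, and the neutrophil sum was lowest in cytarabine 2 and 3, and the part of either in the results was not tested. In these bulk libraries, fewer cells of a type and less RNA per cell cannot be told apart.

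The levels of 5 of the genes were lower in all 3 treated mice than in any control mouse. These were Pdia4, Sdf2l1, Herpud1, Hspa5 and Calr, and their mean FPKM was lower by 22.1%, 19.6%, 16.2%, 12.6% and 9.19%. None of the other members was higher in every cytarabine library. Among all 11703 genes tested, each averaging 1 FPKM or more, 12.9% were below the controls in this way and 10.9% above them. By limma on log2(FPKM + 1) with Benjamini-Hochberg adjustment over all genes, 0 of the 10 members and 0.00% of all genes passed an adjusted p of 0.05. At an unadjusted p under 0.05, 3 members (Pdia4, Hspa5 and Sdf2l1) were lower and 0 higher, against 9.81% and 7.60% of all genes. Without cytarabine 1, 5 members were at an unadjusted p under 0.05 by limma, among 4075 genes, against 2038 genes with all libraries. Of these 5, Hspa5, Calr, Pdia4 and Sdf2l1 were lower and Dnajb9 was higher. Only Pdia4 was left without cytarabine 3, control 2 or control 3 (among 1252, 1260 and 1179 genes). The median log2 fold change of the 10 members was -0.12, against -0.0015 over all genes tested, and it was -0.07 without cytarabine 2. With 3 mice against 3, an exact permutation test of a single gene cannot give less than p = 0.1.

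**Figure D2:**
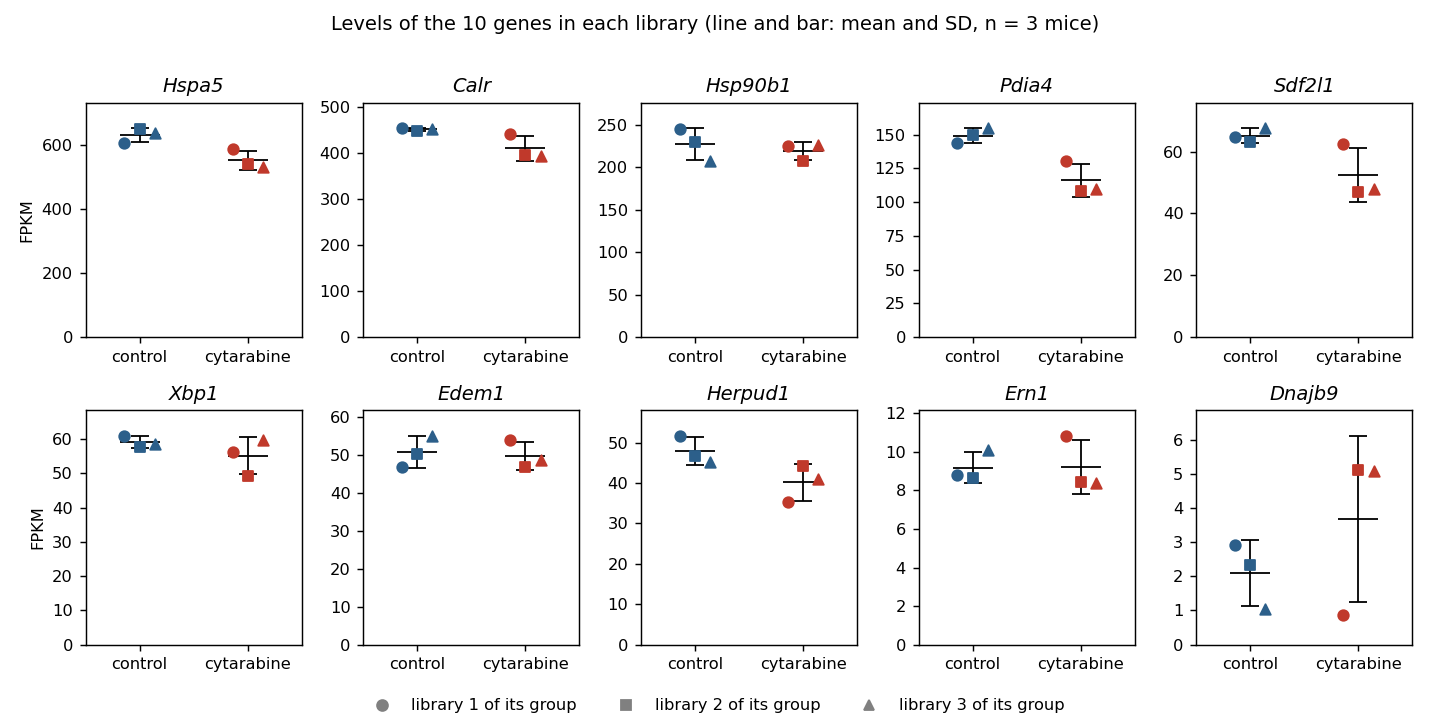
FPKM (linear axis from 0) of each of the 10 genes in the 3 control (blue) and 3 cytarabine (red) libraries, 1 point per mouse, with the mean and SD of each group. Hspa5, Calr, Pdia4, Sdf2l1 and Herpud1 show every cytarabine point below every control point, and Dnajb9 shows the widest spread.

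The abundant chaperones came first in level, and FPKM is divided by transcript length, so levels may be compared between genes. Hspa5, the ER member of the Hsp70 family, lies on chromosome 2 from 34771970 to 34777547 of GRCm38. It was at 586.3, 539.7 and 530.2 FPKM in the treated mice 1, 2 and 3, against 607.1, 650.3 and 636.9 FPKM in the control mice 1, 2 and 3. The groups did not overlap, and cytarabine 1 lay nearest to the controls. The log2 fold change of Hspa5 was -0.19 ± 0.063 (SE), with an adjusted p of 0.223 by limma.

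Calr encodes calreticulin, the lectin chaperone of the ER lumen that binds glycoproteins (chromosome 8, from 84841850 to 84846934). Its level was 440.4, 395.9 and 392.9 FPKM in the treated mice against 454.0, 448.5 and 451.0 FPKM in the control mice. The 3 controls differed little from each other (451 ± 2.78 FPKM, SD, n = 3), while cytarabine 1 was close below them and the other treated libraries further down (409.7 ± 26.6 FPKM, SD, n = 3). The log2 fold change of Calr was -0.14 ± 0.063 (SE), with an adjusted p of 0.312 by limma.

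Hsp90b1, the ER member of the Hsp90 family, showed no such separation of the groups, and its promoter held 2 ERSE copies. It lies on chromosome 10 from 86690209 to 86705509 and overlaps the annotated genes Gm15344 and Gm25745 on its own strand and 1810014B01Rik on the other, and the counting of strand is not stated. Its FPKM was 225.7, 207.6 and 226.5 with cytarabine and 245.5, 229.6 and 207.6 in controls. The ranges overlapped fully, with control 3 at the level of cytarabine 2. Its log2 fold change was -0.047, with a 95% interval from -0.25 to 0.15 (adjusted p = 0.755 from limma).

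Pdia4 (ERp72), a protein disulfide isomerase, had the lowest log2 fold change among the 10. It lies on chromosome 6 from 47796141 to 47813430. Its level was 130.4, 108.3 and 110.1 FPKM in the treated mice against 143.6, 149.5 and 154.9 FPKM in the control mice, or 116.3 ± 12.3 against 149.3 ± 5.67 FPKM (SD, n = 3 each). Cytarabine 2 and 3 were nearly alike, and cytarabine 1 lay between them and the controls. The log2 fold change was -0.36 ± 0.088 (SE), with an adjusted p of 0.166 by limma, and it ranged from -0.45 to -0.31 when 1 library at a time was left out.

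Sdf2l1 is a partner of Hspa5 and of ER J-domain proteins in the lumen (chromosome 16, from 17130138 to 17132383, 1 annotated transcript). It was at 62.6, 47.0 and 47.8 FPKM in the treated mice against 64.9, 63.1 and 67.7 FPKM in the control mice. Cytarabine 1 was within 1 FPKM of the lowest control, so that the separation of the groups in Sdf2l1 came mainly from cytarabine 2 and 3. Its log2 fold change was -0.32 ± 0.121 (SE), with an adjusted p of 0.267 by limma.

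Dnajb9 (ERdj4), a J-domain cochaperone of Hspa5 (chromosome 12, from 44205559 to 44210326), had the lowest level of the 10 and the widest spread. It was at 0.872, 5.11 and 5.08 FPKM in the treated mice against 2.91, 2.33 and 1.04 FPKM in the control mice. The highest values belonged to cytarabine 2 and 3, and the lowest to cytarabine 1. Its log2 fold change of 0.46 had a 95% interval from -0.86 to 1.79 (adjusted p = 0.634 from limma), and it ranged from 0.18 to 1.03 when any 1 library was dropped. The value of 1.03 was that of Dnajb9 without cytarabine 1, with an unadjusted p of 0.0224 and an adjusted p of 0.0994 by limma. The order of the libraries for Dnajb9 followed that of the colon genes in part, since the 3 libraries with the most colon RNA also had the 3 highest values.

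Neither the sensor nor its target separated the groups. Ern1, the kinase and RNase IRE1 (chromosome 11, from 106394650 to 106487852), was at 10.9, 8.46 and 8.39 FPKM in the treated mice against 8.81, 8.64 and 10.1 FPKM in the control mice. A single library in each group was high, and the log2 fold change was 0.0016 (95% interval from -0.30 to 0.31, adjusted p = 0.996 from limma). Its paralog Ern2, known from the gut epithelium, was listed at 0 in control 2 and 3 and reached 2.40 FPKM in cytarabine 2. Xbp1 (chromosome 11, from 5520659 to 5525893) was at 56.3, 49.4 and 59.9 FPKM in the treated mice against 61.1, 57.7 and 58.5 FPKM in the control mice. The ranges overlapped through cytarabine 3, and the log2 fold change of Xbp1 was -0.10 (95% interval from -0.31 to 0.11, adjusted p = 0.515 from limma).

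The pair of genes for disposal of unfolded proteins differed from each other in pattern. Herpud1, a membrane protein that assembles the degradation complex (chromosome 8, from 94386438 to 94395377), was at 35.2, 44.3 and 41.0 FPKM in the treated mice against 51.8, 46.7 and 45.3 FPKM in the control mice. Here cytarabine 1 was the lowest library, the reverse of its place for Hspa5, Calr, Pdia4 and Sdf2l1. The log2 fold change of Herpud1 was -0.25 ± 0.104 (SE), with an adjusted p of 0.29 by limma, and its groups overlapped once FPKM was divided by median-of-ratios factors. The annotated gene Gm15890 overlaps Herpud1 on the other strand. Edem1, which draws misfolded glycoproteins into degradation (chromosome 6, from 108828641 to 108859356), was at 53.8, 46.7 and 48.5 FPKM in the treated mice against 46.7, 50.2 and 55.0 FPKM in the control mice. Its groups overlapped, with a log2 fold change of -0.026 (95% interval from -0.24 to 0.19, adjusted p = 0.88 from limma).

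**Figure D3:**
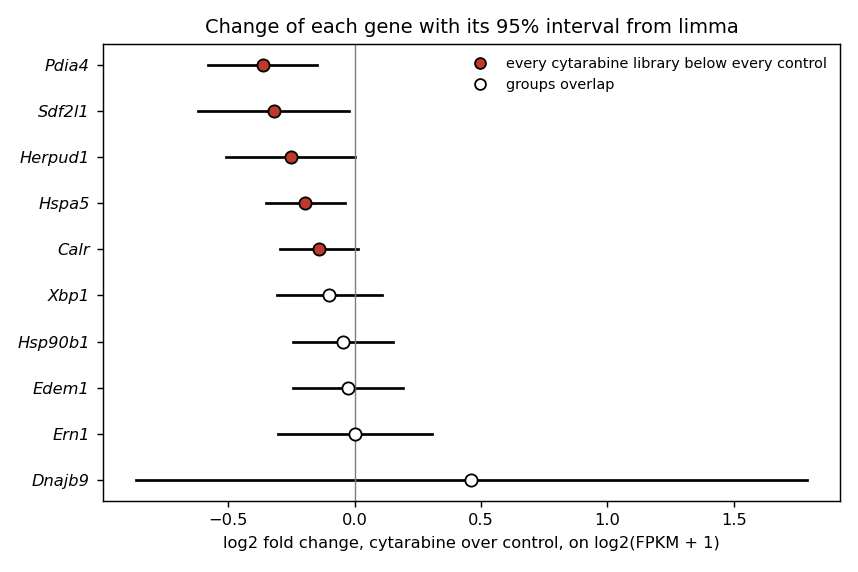
Log2 fold change of each gene on log2(FPKM + 1), cytarabine over control, with its 95% interval from limma (n = 3 mice per group). Filled points mark the 5 genes whose groups did not overlap, and the intervals of Pdia4, Sdf2l1 and Hspa5 lie below 0.

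Over all 6 libraries, the order of the mean levels was Hspa5 (591.8 FPKM), Calr (430.5), Hsp90b1 (223.8), Pdia4 (132.8), Sdf2l1 (58.8), Xbp1 (57.1), Edem1 (50.2), Herpud1 (44.1), Ern1 (9.21) and Dnajb9 (2.89). The ranges of neighbors in this order overlapped for Sdf2l1 and Xbp1, for Xbp1 and Edem1 and for Edem1 and Herpud1, and did not overlap for the other neighbors. As a description over 6 libraries that differ in depth and colon RNA, Hspa5, Calr, Pdia4 and Sdf2l1 followed one another closely, with Pearson's r of log2(FPKM + 1) from 0.91 to 0.99 in their pairs. Hsp90b1 followed Hspa5 with r = 0.17. Outside the 10, the genes most like their mean z-score over the 6 libraries were Eps15l1 (r = 0.997), Cyp20a1 (r = 0.996) and Ccdc163 (r = 0.996), the top of a search through all genes tested.

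The colon RNA moved with part of these values. The libraries were divided by their colon genes into 3 with little (cytarabine 1, control 2 and control 3) and 3 with much of it (cytarabine 2, cytarabine 3 and control 1), and each side then has a single library in one group and allows no test. The difference of cytarabine from control in log2(FPKM + 1) was -0.22 with little and -0.39 with much colon RNA for Pdia4, and -0.13 and -0.18 for Hspa5. It was -0.38 and -0.27 for Herpud1. For Sdf2l1 it was -0.061 and -0.44, and for Calr -0.030 and -0.20. The median over the 10 genes was -0.053 and -0.18. Because the groups of these 5 genes do not overlap, the sign on each side was fixed by how they were singled out, and only the sizes are given. With the colon score as a covariate, the log2 fold change of Sdf2l1 went from -0.32 to -0.19 and that of Hspa5 from -0.19 to -0.12, and neither kept an unadjusted p under 0.05 (0.21 and 0.139 by limma). Pdia4 was at -0.25 and Calr at -0.097 in that fit, and Herpud1 went from -0.25 to -0.41. The members at an unadjusted p under 0.05 were then Pdia4 (0.0302 by limma) and Herpud1 (0.00412 by limma), and the adjusted p of the 5 genes ranged from 0.196 to 0.621. The part of colon RNA in the lower levels was not tested beyond these values.

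**Figure D4:**
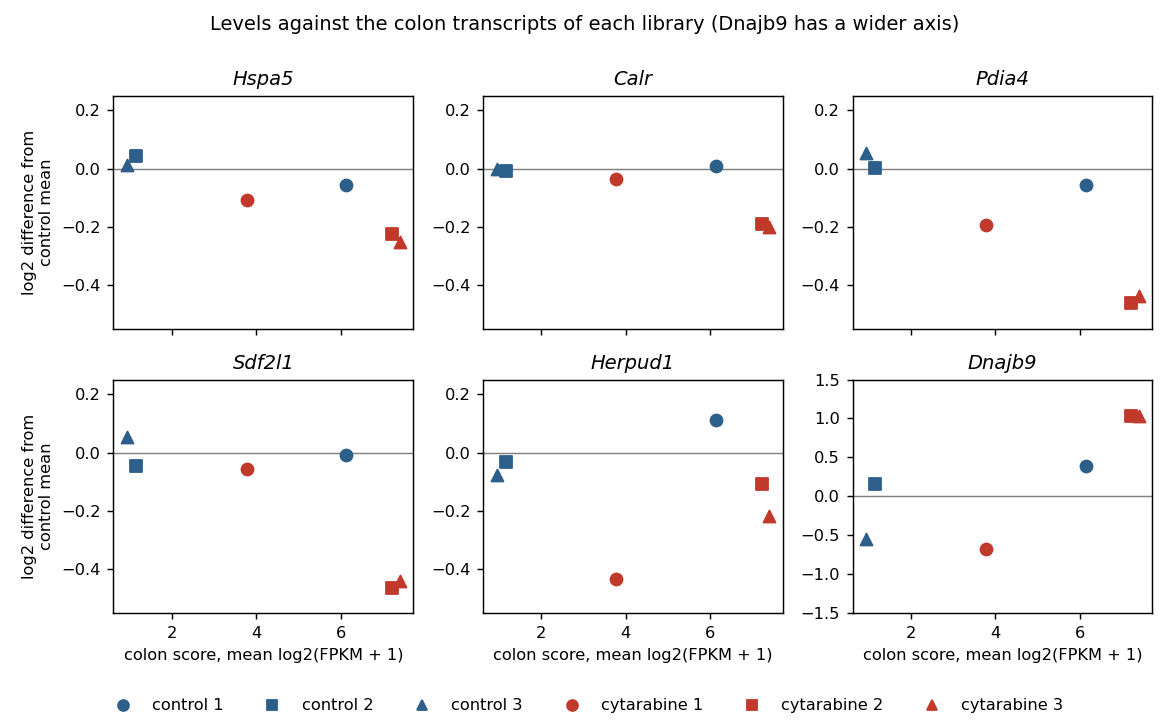
Difference of each library from the control mean in log2(FPKM + 1) for 6 of the genes, against the mean log2(FPKM + 1) of 18 goblet cell and colonocyte genes, with controls in blue and cytarabine in red. Cytarabine 2 and 3, with the highest colon scores, are lowest for Hspa5, Calr, Pdia4 and Sdf2l1 and highest for Dnajb9, and control 1 stays near 0 for Hspa5, Calr, Pdia4 and Sdf2l1.

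Other genes of the ER and of the response were then taken from 7 lists by role, without the 10 members. Of 126 genes found, 123 were tested, and 40 of them were lower in all 3 treated mice than in any control mouse, while 6 were higher (12.9% and 10.9% of all genes). At an unadjusted p under 0.05, 34 were lower and 3 higher (9.81% and 7.60% of all genes), and 0 had an adjusted p under 0.05 from limma. Their median log2 fold change was -0.15, with 92 of 123 below 0 (50.3% of all genes). The 34 became 52 without cytarabine 1, 20 without cytarabine 3 and 18 without control 3. Lower genes among all genes tested numbered 1148 with all libraries and 2049, 616 and 585 in these fits. With the colon score as a covariate, 23 genes of the lists were lower and 7 higher, against 827 and 955 of all genes tested. The 40 became 68 without cytarabine 1 and 61 without control 1, and the matching counts over all genes were not computed. With a library left out, groups separate more easily for any gene, so these rises are no result about the lists.

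Of 18 further ER chaperones, 5 were lower and 1 higher at an unadjusted p under 0.05 (9.81% and 7.60% of all genes). Canx, the membrane-bound relative of calreticulin, was at 192.8 ± 15.9 FPKM in treated mice and 239 ± 11.8 FPKM in controls (SD, n = 3 each), with a log2 fold change of -0.31 (adjusted p = 0.178 from limma). Hyou1 (Grp170), which exchanges the nucleotide of Hspa5, was at 49.6 ± 10.1 against 70.3 ± 5.86 FPKM, and Creld2 at 38.4 ± 2.09 against 51.6 ± 6.56 FPKM. Against this direction, Dnajc10 (ERdj5), a J-domain reductase that aids degradation, was at 84.3 ± 8.68 FPKM in treated mice and 50.5 ± 3.52 FPKM in controls. Each cytarabine library was above each control for Dnajc10, with a log2 fold change of 0.73 (adjusted p = 0.131 from limma). Its difference was 0.77 with little and 0.73 with much colon RNA, with the sign fixed by groups that do not overlap. Of 15 disulfide exchange enzymes, 4 were lower and 0 higher at the same threshold. Among the lower were P4hb (265.5 ± 10.7 against 302.3 ± 9.94 FPKM), Pdia6 (185.9 ± 15.9 against 226.3 ± 3.45 FPKM) and the oxidase Ero1l (82.6 ± 4.64 against 97.6 ± 6.95 FPKM).

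In ER-associated degradation, 4 of 21 genes were lower and 0 higher at an unadjusted p under 0.05 (9.81% and 7.60% of all genes). Sel1l, the scaffold of the main degradation complex, was at 17.2, 16.5 and 16.5 FPKM in the treated mice against 21.1, 21.0 and 21.5 FPKM in the control mice. The groups for Sel1l were far apart compared with their spread, with a log2 fold change of -0.33 (adjusted p = 0.136 from limma). Its differences were -0.29 and -0.34 on the sides with little and much colon RNA, again with the sign fixed by groups that do not overlap. Aup1 and Herpud2, a relative of Herpud1, were at 119.4 ± 12.6 against 155.2 ± 12.5 FPKM and at 19.3 ± 0.659 against 24.6 ± 2.88 FPKM.

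Among 9 sensors and genes that process them, 3 were lower and 1 higher at an unadjusted p under 0.05 (9.81% and 7.60% of all genes). Atf6b, a relative of Atf6, was at 26.3 ± 5.54 FPKM in treated mice and 44.5 ± 2.75 FPKM in control mice, and its log2 fold change was -0.76 (adjusted p = 0.148 from limma). Mbtps1, the first protease to cut ATF6, was at 52.9 ± 3.24 against 64.4 ± 3.56 FPKM. Atf6 itself was at 12.2 ± 0.483 against 11.5 ± 1.06 FPKM, with overlapping groups. Creb3, a membrane-bound transcription factor of the ER, was above every control, at 32.7 ± 1.21 against 26.9 ± 1.45 FPKM (adjusted p = 0.168 from limma).

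The arm of PERK and ATF4 had 7 of 17 genes lower and 0 higher at an unadjusted p under 0.05 (9.81% and 7.60% of all genes). Of the 17, 13 had a log2 fold change below 0 and 4 above it. The groups overlapped for Atf4 (log2 fold change -0.12), Ppp1r15a (-0.058), Ddit3 (0.057), Atf3 (0.36) and Nupr1 (0.59), so not every gene of the arm was lower. Over the 17 genes, the median log2 fold change was -0.16. Their summed level, which the abundant genes dominate, was 1013 to 1132 FPKM in treated mice and 1320 to 1375 FPKM in controls. Chac1, which degrades glutathione, was at 4.35, 6.03 and 4.92 FPKM in the treated mice against 11.1, 9.15 and 10.1 FPKM in the control mice, a log2 fold change of -0.87 ± 0.133 (SE), with an adjusted p of 0.131 by limma. Asns, the asparagine synthetase, was at 130.6 ± 11.7 against 197.8 ± 11.1 FPKM, and Psat1, of serine synthesis, at 163.1 ± 18.5 against 238 ± 14.4 FPKM. The log2 fold changes of these 3 genes lay further from 0 than those of the 10 members. With little and with much colon RNA, the differences were -0.99 and -0.91 for Chac1, -0.47 and -0.67 for Asns and -0.40 and -0.59 for Psat1, with the sign fixed by groups that do not overlap.

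For entry into the ER and glycosylation, 8 of 25 genes were lower and 0 higher at an unadjusted p under 0.05 (9.81% and 7.60% of all genes). Every cytarabine library was below every control for 10 of them and above for 2 (12.9% and 10.9% of all genes). Ostc, a subunit of the oligosaccharyltransferase, was at 161.8 ± 11.5 against 212.8 ± 8.14 FPKM (log2 fold change -0.39, adjusted p = 0.137 from limma), and the signal peptidase subunit Sec11a at 95.9 ± 5.17 against 112.8 ± 4.64 FPKM. In transport between ER and Golgi, 3 of 18 genes were lower and 1 higher at an unadjusted p under 0.05 (9.81% and 7.60% of all genes). Of the 18, 15 had a log2 fold change below 0 and 3 above it. Kdelr2, which returns escaped ER proteins, was among the lower, at 69.1 ± 2.19 against 77.9 ± 2.62 FPKM. The gene of that list higher at this threshold was Sar1b, a GTPase of transport vesicles, at 56.4 ± 4.90 against 47.3 ± 2.94 FPKM.

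**Figure D5:**
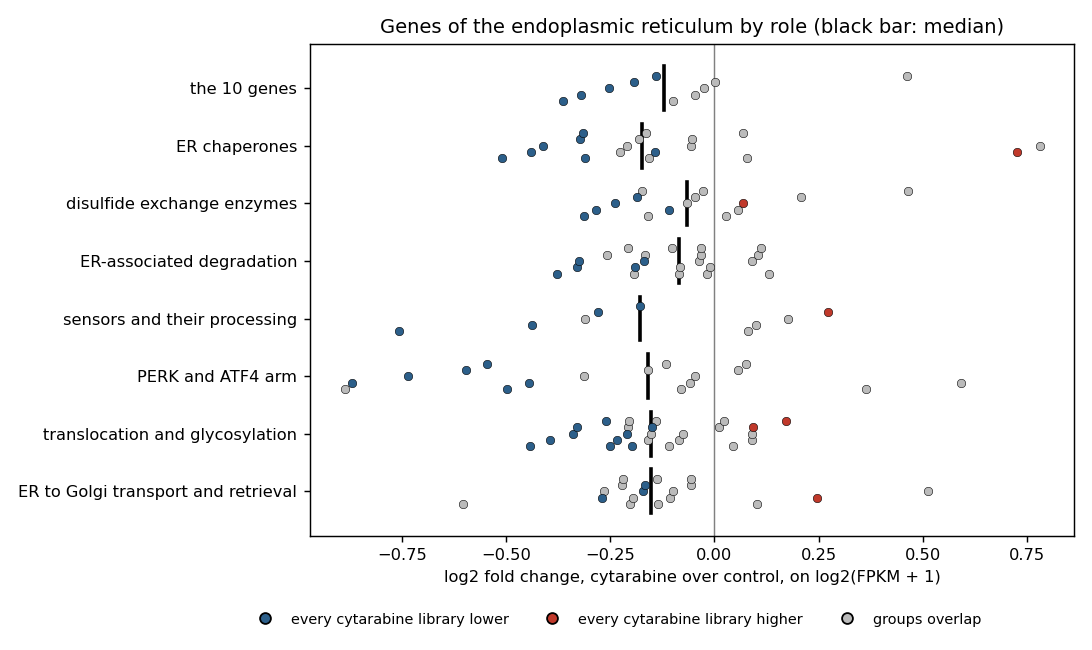
Log2 fold change on log2(FPKM + 1), cytarabine over control, of the 10 genes and of the tested genes of each of 7 lists, 1 point per gene, with the median as a black bar. Blue points are genes with every cytarabine library lower (5 of the 10 and 40 of 123), red points those with every cytarabine library higher, and each median lies below 0.

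The promoters shown above raised the question of how other genes with the same element behaved. Apart from the members, 41 gene symbols had an exact ERSE or ERSE-II in the same window, and 15 of them were tested. Of these 15, chosen by sequence after the values of the members were known, 14 had a log2 fold change below 0 (50.3% of all genes tested) and 7 were below every control (12.9% of all genes), with a median of -0.26 against -0.0015 over all genes tested. Of the 15, 6 stand on the lists above (Canx, Creld2, Derl3, Dnajc3, Pdia6 and Syvn1), so the counts overlap. These 6 had a median log2 fold change of -0.30, and 4 of them were below every control. Among the rest, Adcy3, an adenylyl cyclase, had a log2 fold change of -0.44 (adjusted p = 0.171 from limma), and Hnrnpa3, an RNA-binding protein, was the gene above 0, with 0.11 (adjusted p = 0.458 from limma). The remaining values were -0.33 (Xlr3b), -0.28 (Rcl1), -0.24 (Alg12), -0.12 (Xlr3a), -0.093 (Rbm39), -0.048 (Pan2) and -0.012 (Nucb1). Of the members with an element, Hspa5, Calr and Herpud1 were below every control and Hsp90b1 was not, while Pdia4 and Sdf2l1 were below every control without an exact element in this window.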

How the data were processed

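Total RNA from sorted cells was sequenced as 75-base single-end reads after a stranded mRNA preparation. Per the authors, reads were aligned to mm10 (TopHat 2.0.13, Bowtie2 2.2.3, SAMtools 0.1.19), and the deposited FPKM of each gene came from Cufflinks 2.2.1. The values are scaled by transcript length and library size. The gene annotation is not given in the sources used here. No counts were used, and the depth was inferred from steps of low FPKM in 3607 genes with 1 transcript, assuming fragments of 200 bases.

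From the deposited FPKM, log2(FPKM + 1) was fitted for the 11703 genes whose mean reached 1 FPKM by limma 3.58.1 in R 4.3.3 (lmFit, then eBayes with a trend), with two-sided p-values adjusted by Benjamini and Hochberg and no covariates. The code of this step was run on simulated data with less noise than here and with planted changes larger than those of the members. That run gives no measure of power in these data. Groups and replicate numbers came from the source labels. Nothing in the labels ties same-numbered mice. Fold changes of low genes are understated on this scale. The 10 members and all lists were chosen with earlier results of these data known. Named are all members and, from each list, genes with the smallest p in each direction. Atf6, Ern2, Atf4, Ppp1r15a, Ddit3, Atf3, Nupr1 and the genes chosen by promoter were added after values were seen. Positions are from GENCODE M21 (GRCm38), and promoters from RefSeq (GRCm38.p6). The starts of the 2 annotations can differ, so that part of a printed promoter lies inside the gene as positioned, as for Hspa5, Hsp90b1 and Calr. Figures were drawn with matplotlib 3.10.9.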

Additional observations from a re-analysis of the deposited data

How the results depend on the processing

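No member had an adjusted p under 0.05 from limma in any alternative fit. The table-wide count at an adjusted p under 0.05, which was 0 (with 2038 genes and 3 members at an unadjusted p under 0.05), was 1 with a pseudocount of 0.1 and 2 without the trend, and it ranged from 0 to 5 when 1 library was left out. At an unadjusted p under 0.05, leaving out 1 library gave from 1179 to 4075 genes and from 1 to 5 members, and a median over the members from -0.14 to -0.070. With the colon and heart scores as covariates, 564 genes (271 of them lower) and 1 member (Herpud1) were at an unadjusted p under 0.05. So were 10 lower genes of the 7 lists, and the median over the members was -0.058. That median was -0.053 within the libraries with little colon RNA and -0.18 within those with much of it. When the replicate number entered as a block, 994 genes (515 of them lower), 1 member (Pdia4) and 18 lower genes of the 7 lists were at an unadjusted p under 0.05. After subtracting group means, the libraries that share a number had correlations of -0.71, -0.25 and -0.59, and 0 of the 6 libraries correlated best with its own number. The deviations sum to 0 within each group, and RNA of other tissues differed between libraries. These values therefore cannot decide whether mice were handled in pairs.

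Of the 10 members, 5 changed sign under some setting. Ern1 (0.0016) was -0.094 with quantile normalization and -0.059 with much colon RNA, and ranged from -0.11 to 0.065 when 1 library was left out. Edem1 (-0.026) was 0.10 with the colon score, 0.077 with both scores, 0.033 with little and 0.029 with much colon RNA, and ranged from -0.083 to 0.035. Hsp90b1 (-0.047) was 0.066 with both scores and 0.048 with little colon RNA, and ranged from -0.11 to 0.0096. Xbp1 (-0.10) was 0.089 with both scores and ranged from -0.16 to -0.024. Dnajb9 (0.46) was -0.34 with the colon score and -0.48 with little colon RNA, and ranged from 0.18 to 1.03. The cause was not tested. Dnajb9 was left out by a minimum mean of 5 FPKM.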
